A study of Homo sapiens with 4 samples.

Results

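Most proteins of a mitochondrion are made in the cytosol and must be threaded into the organelle and folded there. The genes for this machinery were taken from the count table by symbol. They are those that begin with TIMM or TOMM and a digit, without pseudogenes, and 21 named genes for processing peptidases, chaperones, receptors and proteases. Of 23340 lines with a gene symbol, 43 met the rule, none was a pseudogene, and the rule used no measured value. They were sorted into 8 roles, and 42 of the 43 had enough counts to be tested. TOMM20L, a paralog of TOMM20, had 0 counts in all 4 libraries, which allows at most 3 counts or between 0.071 and 0.083 CPM (counts scaled to 1000000 per library by TMM).

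The measurements are poly-A RNA-seq of A549 cells, a line of epithelial cells taken from a lung carcinoma. The libraries WT 1 and WT 2 hold unedited cells, and clones 4 and 5 are NOCT-KO lines, each grown from 1 cell after lentiviral CRISPR, puromycin and limiting dilution. All were grown in RPMI with serum and collected before confluency. The sources used here do not say whether WT cells also passed through virus, drug and cloning, so the knockout and those steps cannot be told apart. Each clone was sequenced once, so a difference between a clone and WT may belong to that clone or that culture. Nothing states that WT 1 and WT 2 were separate cultures, and p-values then measure only the spread between these libraries.

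Depth was 36873556 to 41963070 counts, and members took 0.645 to 0.680% of them. The transcript of NOCT, listed as CCRN4L, was measured at 20.8 and 20.1 CPM in the WT pair, at 29.3 CPM in clone 4 and at 15.6 CPM in clone 5. Counts over the whole gene check neither the edit nor the labels. The keratins KRT8 and KRT18 ranged from 721 to 1357 CPM, while KRT19 was at 0 counts and EPCAM at or below 0.166 CPM. Of the leukocyte markers PTPRC and CD3E were at 0 counts, while CD68 ran from 12.5 to 21.1 CPM, highest in clone 5 (edgeR adjusted p = 0.015 against WT). Of the endothelial markers PECAM1 and CDH5 were at 0 counts and VWF had 6 counts in clone 5 and 0 elsewhere. CDKN2A, a gene that A549 cells lack, was at 0 counts. Clone 4 stood apart in the fibroblast collagen COL3A1, with 26.7 CPM against 187 to 206 CPM in the other libraries. COL1A1 was lower in both clones (5.71 and 7.74 CPM) than in WT (14.3 and 15.7 CPM). KRT8 and KRT18 were highest and CDH1 lowest in clone 4, and the alveolar transporter ABCA3 was highest in clone 5, each past edgeR's threshold against WT. KRT18 was also higher in WT than in clone 5, by a log2 fold change of 0.28. CDH1 stood at 0.63 in WT over clone 4, beside a median of 0.38 over other tested genes within 5 Mb. The part of these differences in the members' values was not tested. Of the other alveolar type 2 markers, SFTPA1, SFTPA2, SFTPB, SFTPC and SFTPD were at 0 counts. NKX2-1 was at or below 0.24 CPM and LAMP3 at or below 0.58 CPM. Of the other fibroblast and muscle markers, PDGFRB was at or below 0.095 CPM and ACTA2 at 1.11 to 2.47 CPM.

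As background, precursor proteins cross the outer membrane through the TOM complex and then the inner membrane through TIM23, or enter that membrane through TIM22. An Hsp70 motor pulls them into the matrix, peptidases clip the targeting presequence, and the chaperonin of HSPD1 and HSPE1 folds many of them. ATP-dependent proteases remove those that fail. The study compared WT with NOCT-KO cells to see which transcripts, those of mitochondrial proteins included, differ between them.

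Promoter sequences are shown for 4 members, HSPD1 and HSPE1 because they form 1 chaperonin, and TOMM20 and TIMM17A because they passed a test below. Each window runs from 250 bases before to 50 bases after a transcription start on RefSeq's GRCh38.p14, a different build from the hg19 of the counts. Capitals mark matches to 7 letter patterns searched on both strands.
HSPD1, chr2:197499791-197500090, strand -: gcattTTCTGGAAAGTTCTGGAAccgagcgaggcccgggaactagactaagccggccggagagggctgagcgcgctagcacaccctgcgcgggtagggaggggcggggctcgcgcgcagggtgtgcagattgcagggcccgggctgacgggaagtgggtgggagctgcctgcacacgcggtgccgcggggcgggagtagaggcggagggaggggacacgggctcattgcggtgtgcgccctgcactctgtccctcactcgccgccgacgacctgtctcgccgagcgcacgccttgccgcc
HSPE1, chr2:197500129-197500428, strand +: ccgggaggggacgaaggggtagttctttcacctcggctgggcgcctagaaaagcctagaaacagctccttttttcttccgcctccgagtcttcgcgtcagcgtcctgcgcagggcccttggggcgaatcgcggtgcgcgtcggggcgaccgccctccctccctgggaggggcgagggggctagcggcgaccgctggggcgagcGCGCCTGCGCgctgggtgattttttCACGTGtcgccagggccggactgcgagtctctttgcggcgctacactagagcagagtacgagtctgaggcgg
TOMM20, chr1:235128788-235129087, strand -: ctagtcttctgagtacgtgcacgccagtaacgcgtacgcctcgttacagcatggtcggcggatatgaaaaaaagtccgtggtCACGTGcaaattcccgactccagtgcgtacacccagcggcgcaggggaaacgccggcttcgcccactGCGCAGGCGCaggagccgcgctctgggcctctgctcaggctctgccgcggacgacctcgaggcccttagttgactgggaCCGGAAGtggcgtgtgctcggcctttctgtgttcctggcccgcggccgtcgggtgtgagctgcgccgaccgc
TIMM17A, chr1:201955253-201955552, strand +: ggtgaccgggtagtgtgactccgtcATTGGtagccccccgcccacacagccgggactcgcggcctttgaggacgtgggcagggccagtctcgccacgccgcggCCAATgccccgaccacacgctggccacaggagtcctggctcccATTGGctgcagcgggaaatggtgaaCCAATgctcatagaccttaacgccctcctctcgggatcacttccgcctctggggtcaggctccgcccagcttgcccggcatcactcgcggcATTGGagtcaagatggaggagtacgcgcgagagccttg
HSPD1 has another RefSeq start, whose window shares 204 bases with that of HSPE1, since the pair of genes lies head to head. The window shown belongs to the start farther from HSPE1, which is the downstream one of HSPD1. In it, 3 overlapping matches to the heat shock element, TTCNNGAA, GAANNTTC and TTCNNGAA again, begin 245, 240 and 235 bases before the start. The HSPE1 window holds an NRF1 pattern (GCGC and TGCGC with any base between) 47 bases and an E-box (CACGTG) 22 bases before the start. TOMM20 holds an E-box at 168, an NRF1 pattern at 101 and an ETS pattern (CCGGAAG) at 22 bases before its start. TIMM17A holds 5 matches to CCAAT and none to the other patterns.

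Promoters of 38 members matched RefSeq by symbol. The NRF1 pattern, named for a factor that drives nuclear genes of mitochondrial proteins, occurred in 11 of the 38 (28.9%) against 6.98% of 27305 genes with such a window. The ETS pattern occurred in 13 (34.2%) against 12.2%, and the E-box in 8 (21.1%) against 8.77%. The CCAAT box was in 13 members (34.2%) against 39.7%. TTCNNGAA was in 4 members, HSPA9, HSPD1, TIMM10 and TOMM70A (10.5% against 9.46%), and GAANNTTC in HSPD1 alone (2.63% against 8.21%). The ATF4 with CEBP pattern TGATGCAAT was in PMPCB alone (2.63% against 0.293%). TTCNNGAA and GAANNTTC can overlap each other, as in HSPD1. HSPD1 and HSPE1 are both counted for the NRF1 pattern and the E-box through the same sites, which lie in the bases that their windows share. Members had on average 1.16 windows and all genes 1.29. The 27305 genes were not limited to those expressed here, and no share over the tested genes alone was computed. These are matches of letters, described without a test.

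The levels of the members differed over a wide range, which is best read per kilobase of transcript. HSPD1, the Hsp60 chaperonin of the matrix, stood highest at 698 to 756 CPM per kb over the 4 libraries. TOMM20, the receptor for presequences, followed at 243 to 316 CPM per kb, and HSPA9, the Hsp70 of the import motor, at 258 to 271 CPM per kb. These ranges of TOMM20 and HSPA9 overlapped. TOMM5, a small TOM subunit, ran from 218 to 280 CPM per kb, though 81.9% of its exon bases overlap other annotated genes, and TIMM10, a small chaperone of the intermembrane space, from 140 to 184 CPM per kb. At the low end, DNAJC19, a J-domain protein at the import motor, had 4.27 to 8.94 CPM per kb, and TOMM40L, a paralog of the TOM channel, 6.74 to 8.55 CPM per kb. HSPD1, HSPA9 and TOMM20 together held 54.5 to 55.3% of the members' summed CPM.

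**Figure D1:**
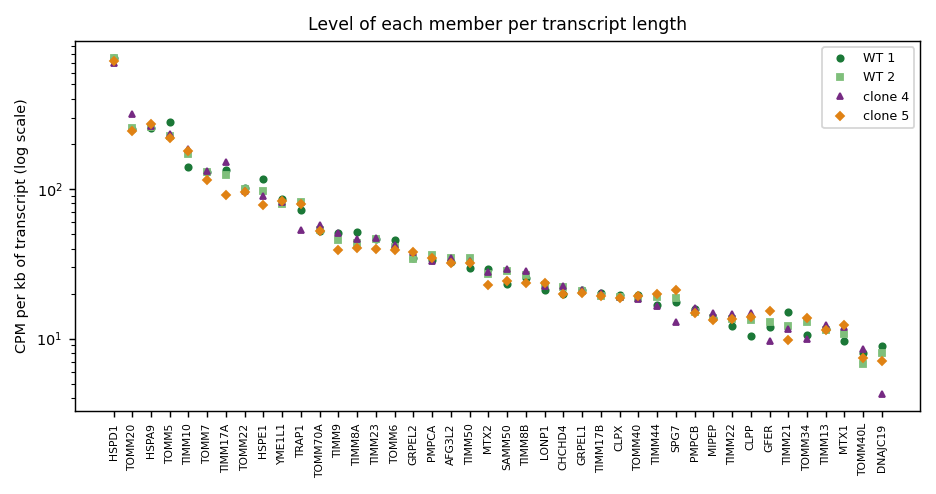
Level of the 42 detected members in CPM per kb of transcript on a log axis, 1 point per library, ordered by the mean of the 4 libraries. HSPD1 lies at 698 to 756 CPM per kb in all libraries, and DNAJC19 at 4.27 to 8.94, with clone 4 lowest.

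The first of 4 comparisons was between WT and both NOCT-KO clones. No member passed the threshold in it by the quasi-likelihood test of edgeR, adjusted after Benjamini-Hochberg over 13143 genes at 0.05. The count was 0 of 42 members against 0.0% of all genes tested, whose lowest adjusted p was 0.30 from edgeR. A test that called no gene at all cannot tell unchanged members from missed ones. At an unadjusted p under 0.05 there were 0 members and 553 genes (4.21%), and DESeq2 and limma-voom also called 0 members. Of the 42, 23 had a higher mean in WT and 19 a lower one, with a median of 0.01 and a range from -0.29 to 0.57 in log2 units, positive where WT was higher. Over all genes 6557 were higher and 6586 lower, with a median of -0.00. The log2 fold change lay within 0.25 of zero for 37 of 42 members and 9632 of 13143 genes. The members' summed CPM was 6699 (WT 1), 6697 (WT 2), 6793 (clone 4) and 6512 CPM (clone 5), with both WT sums between those of the clones.

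The most abundant members of several roles are given first, library by library. HSPD1 stood at 1693 (WT 1), 1698 (WT 2), 1566 (clone 4) and 1604 CPM (clone 5). Both WT libraries were above both clones, by a log2 fold change of 0.10 (95% interval -0.10 to 0.29, edgeR adjusted p = 0.97). In bulk RNA, fewer expressing cells and less RNA per cell cannot be told apart. HSPA9 stood at 1134, 1136, 1155 and 1192 CPM in the same order, with both clones above WT and a log2 fold change of -0.05 (95% interval -0.24 to 0.15, edgeR adjusted p = 0.99). YME1L1, the protease that faces the intermembrane space, had 358, 332, 341 and 350 CPM, and the groups overlapped. PMPCA, the alpha subunit of the processing peptidase, had 69.5, 75.8, 69.0 and 72.6 CPM, again with overlap. SAMM50, the core of the complex that inserts barrel proteins into the outer membrane, had 39.0, 48.2, 49.2 and 40.9 CPM, and here too the groups overlapped.

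**Figure D2:**
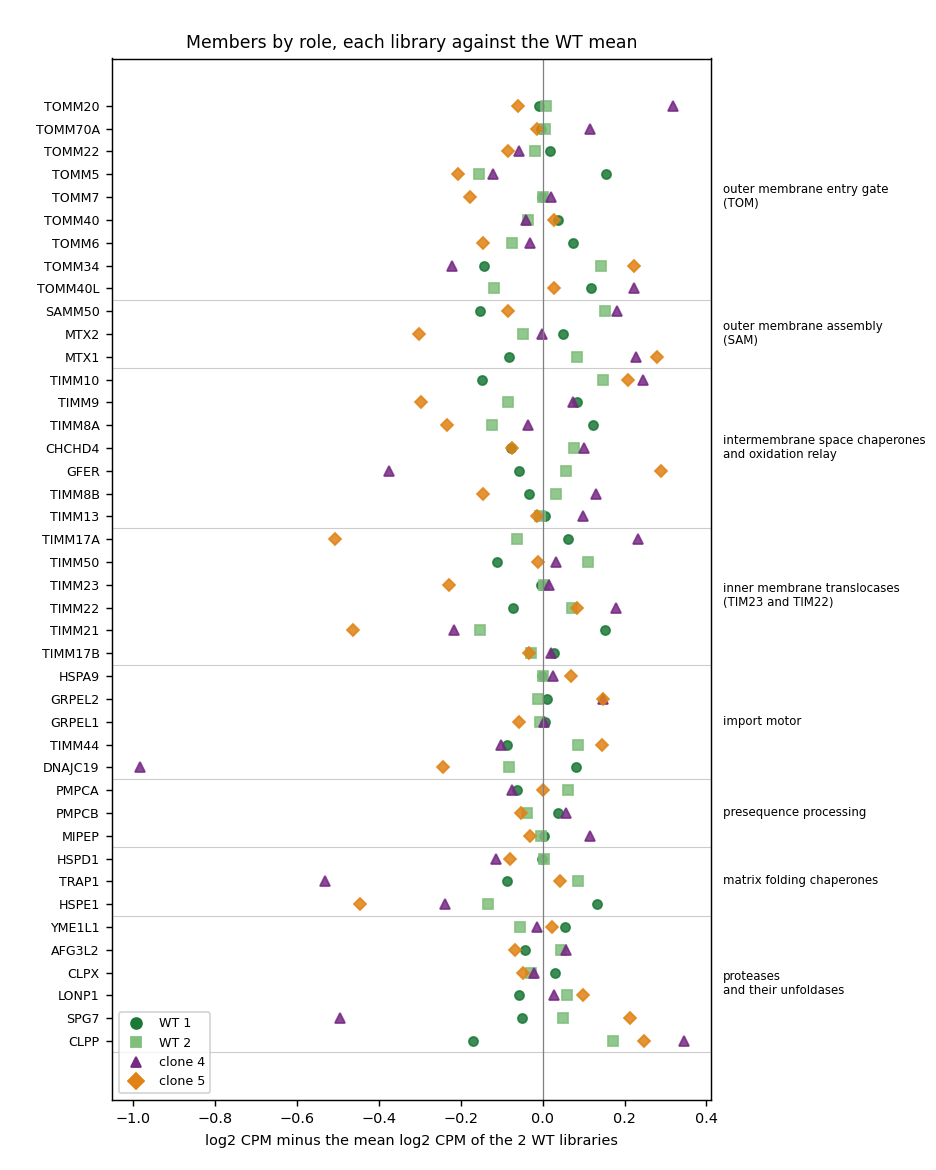
Log2 CPM of each of the 42 detected members minus its mean in the WT pair, grouped by role, 1 point per library. Most points lie within 0.25 of zero; clone 4 stands out in DNAJC19, TRAP1, SPG7, GFER and TOMM20, and clone 5 in TIMM17A, TIMM21 and HSPE1.

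In 11 members the CPM of WT and NOCT-KO did not overlap, 5 with WT higher and 6 with WT lower. Of all genes, 34.3% did not overlap, 17.9% with WT higher and 16.4% with WT lower, so the members' share was near the background. In 5 of the 11 the WT mean differed from the NOCT-KO mean by at least 15% of the latter. None of the 5 passed edgeR's threshold. DNAJC19 is given with clone 4, and HSPE1, TIMM21, CLPP and MTX1 follow, with TIMM10, the most abundant of its role.

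HSPE1, the Hsp10 lid of the chaperonin, had 65.0 (WT 1), 54.0 (WT 2), 50.3 (clone 4) and 43.5 CPM (clone 5). The WT libraries differed from each other by more than WT 2 from clone 4, and the log2 fold change was 0.34 (standard error, SE, 0.14, edgeR adjusted p = 0.97). Against clone 5 alone it was 0.45 (SE 0.13, edgeR adjusted p = 0.075). HSPE1 has 26 annotated pseudogene copies and HSPD1 has 18, and the sources used here do not say how reads shared with them were counted. TIMM21, which links the TIM23 complex to TOM, had 46.3, 37.5, 35.8 and 30.2 CPM in the same order, with WT 2 close to clone 4. Its log2 fold change was 0.34 (SE 0.16, edgeR adjusted p = 0.97), and 0.47 against clone 5 (SE 0.14, edgeR adjusted p = 0.10).

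CLPP, MTX1 and TIMM10 stood lower in WT, and WT 1 was the lowest library in each. CLPP, the protease chamber of the matrix, had 25.1 (WT 1), 31.9 (WT 2), 36.0 (clone 4) and 33.6 CPM (clone 5) (log2 fold change -0.29, SE 0.16). MTX1, a metaxin of the outer membrane, had 15.6, 17.6, 19.4 and 20.1 CPM (log2 fold change -0.25, SE 0.14). TIMM10 had 93.7, 115, 123 and 120 CPM (log2 fold change -0.22, SE 0.12). For each the adjusted p was 0.97 from edgeR, and WT 1 and WT 2 differed by more than clones 4 and 5 did for CLPP, MTX1 and TIMM10.

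The clones were then compared with WT singly, with edgeR's 3-group fit. In it a gene's own spread has 1 residual degree of freedom, from the WT libraries, and edgeR moderates that spread over all genes tested. A lone clone is taken to vary as the WT libraries do. In WT against clone 4, 4 of 42 members changed, 3 higher in WT and 1 lower, against 11.4% of all genes (6.02% higher, 5.41% lower). In WT against clone 5, 1 of 42 changed, higher in WT, against 3.51% of all genes (1.73% higher, 1.78% lower). The clones differed from each other in 6 members, 2 higher in clone 4 and 4 lower, against 13.1% of all genes (5.73% higher, 7.38% lower). The members' counts were thus near the background in all 3, and the comparisons share libraries with each other. Medians over the members were -0.02, 0.04 and 0.09 on the log2 scale for these comparisons, beside 0.01, 0.00 and -0.00 over all genes. Without a filter on low counts, no member remained called against either clone, and 1, TIMM17A, between the clones.

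**Figure D3:**
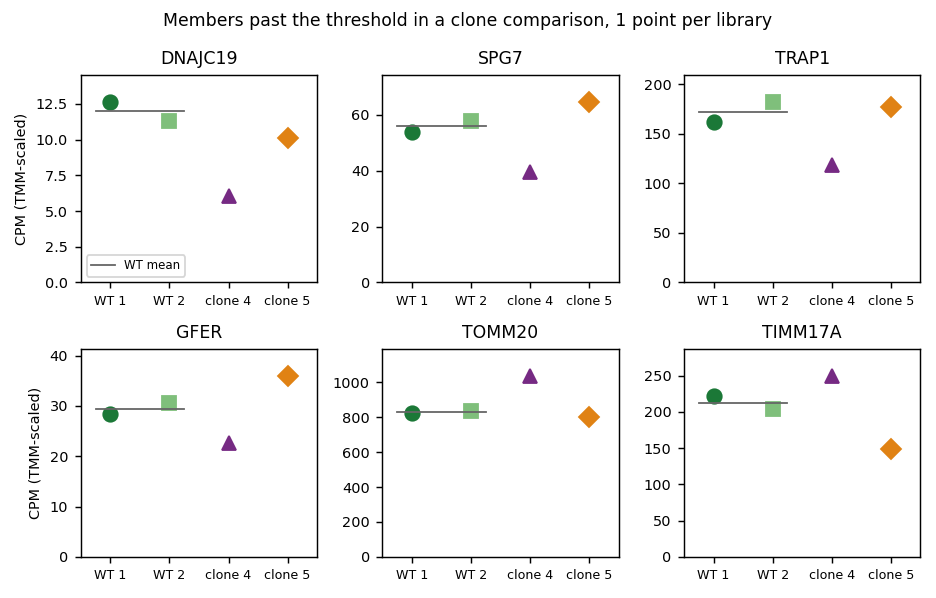
TMM-scaled CPM in each library for the 6 members past the threshold in a comparison by clone; the line is the mean of the WT pair and axes start at 0. Clone 4 is lowest for DNAJC19 (6.05 CPM), SPG7, TRAP1 and GFER and highest for TOMM20 and TIMM17A, and clone 5 is lowest for TIMM17A (149 CPM).

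DNAJC19 showed the largest log2 fold change among the members tested against clone 4. The gene lies on chromosome 3 of hg19, from 180701485 to 180707562. It had 12.7 (WT 1), 11.3 (WT 2), 6.05 (clone 4) and 10.1 CPM (clone 5), from 534, 470, 218 and 420 counts. Clone 4 stood apart, while clone 5 was just under WT 2. The log2 fold change of WT over clone 4 was 0.99 (SE 0.20, edgeR adjusted p = 0.0054), and 0.25 over clone 5 (SE 0.19, edgeR adjusted p = 0.60). The clones differed by -0.74 (SE 0.23, edgeR adjusted p = 0.045), which DESeq2 and limma-voom did not call. Other genes within 5 Mb had a median of -0.06 in WT against clone 4. Its tested neighbors FXR1, ATP11B and DCUN1D1 stood between -0.10 and -0.02, and TTC14 at 0.43 (edgeR adjusted p = 0.066). DNAJC19 has 9 annotated pseudogene copies.

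The other members with their lowest level in clone 4 and a call by clone lie on chromosome 16. TRAP1, the mitochondrial Hsp90 (3701640 to 3767554 of hg19), had 162 (WT 1), 182 (WT 2), 119 (clone 4) and 177 CPM (clone 5). SPG7, a subunit of the m-AAA protease of the inner membrane (89557127 to 89624174), had 53.9, 57.8, 39.6 and 64.7 CPM in the same order. GFER, the oxidase that recharges CHCHD4 (2034194 to 2037750), had 28.3, 30.6, 22.7 and 36.0 CPM. In all 3 clone 4 was lowest, and clone 5 was within WT for TRAP1 and highest for SPG7 and GFER.

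WT over clone 4 was 0.53 on the log2 scale for TRAP1 (SE 0.10, edgeR adjusted p = 0.0036) and 0.50 for SPG7 (SE 0.11, edgeR adjusted p = 0.011). For GFER it was 0.38 and missed the threshold (SE 0.14, edgeR adjusted p = 0.10). Clone 4 lay below clone 5 in all 3, with log2 differences of -0.57 for TRAP1 (adjusted p = 0.0044), -0.71 for SPG7 (adjusted p = 0.0019) and -0.66 for GFER (adjusted p = 0.011), all from edgeR. Beside these stand the values of their chromosome. Among 576 other tested genes of chromosome 16, 539 were higher in WT than in clone 4, with a median log2 fold change of 0.44, and within 5 Mb the medians were 0.45 near TRAP1, 0.49 near SPG7 and 0.46 near GFER. Against clone 5 the chromosome's median was -0.14. The part of the chromosome's shift in these members was not tested. In GFER, 40.5% of exon bases overlap another annotated gene.

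On the long arm of chromosome 1 lie 4 tested members, among them TOMM20, TIMM17A and MTX1. All 4 were lower in WT than in clone 4, with log2 fold changes from -0.32 to -0.22. Against clone 5, 2 were higher in WT and 2 lower. Of 560 other tested genes of that arm, 371 were lower in WT than in clone 4, with a median of -0.15. TOMM20 (235272656 to 235292152 of hg19) had 827 (WT 1), 838 (WT 2), 1037 (clone 4) and 799 CPM (clone 5). Clone 4 alone stood above the rest, with WT over clone 4 at -0.32 (SE 0.07, edgeR adjusted p = 0.0061) and over clone 5 at 0.06 (SE 0.07, edgeR adjusted p = 0.74). Clone 4 exceeded clone 5 by 0.38 (SE 0.08, edgeR adjusted p = 0.0046). Genes within 5 Mb of TOMM20 had a median of -0.29 in WT against clone 4, close to its own value, and of 0.05 against clone 5, and the region's part in it was not tested.

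TIMM17A, a channel subunit of TIM23 (201924631 to 201939792 of hg19), had 222 (WT 1), 203 (WT 2), 250 (clone 4) and 149 CPM (clone 5). The WT libraries lay between the clones. WT over clone 5 was 0.51 (SE 0.10, edgeR adjusted p = 0.0073), and WT over clone 4 was -0.23 (SE 0.09, edgeR adjusted p = 0.13). Clone 4 exceeded clone 5 by 0.74 (SE 0.11, edgeR adjusted p = 0.00035). Against clone 5 the median of genes within 5 Mb was 0.05. Of the nearest tested neighbors RNPEP, ELF3 and IPO9 stood at -0.07, -0.12 and 0.17, and SHISA4 at 0.40 (SE 0.47, edgeR adjusted p = 0.74). Against clone 4 the median within 5 Mb was -0.47. The paralog TIMM17B, on chromosome X, had 16.5, 15.9, 16.4 and 15.8 CPM.

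**Figure D4:**
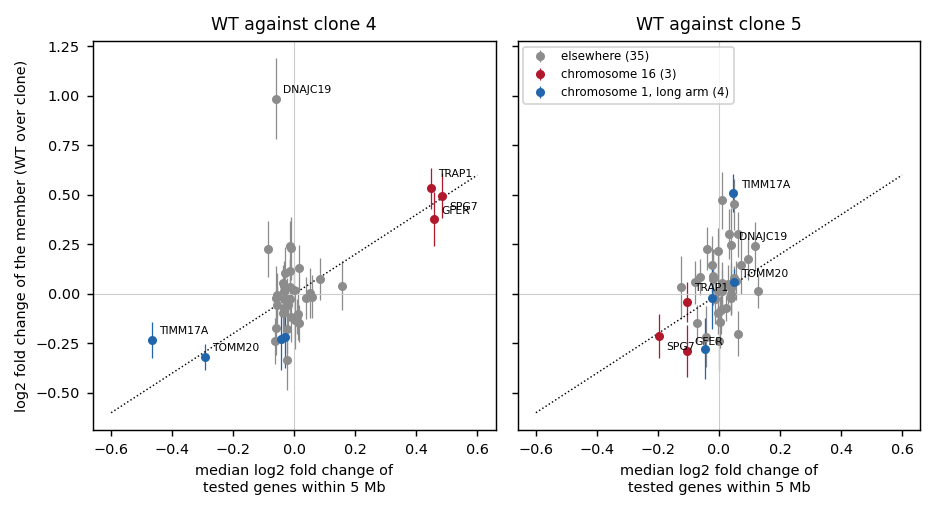
Log2 fold change of each member (WT over clone, bars are 1 standard error) against the median of other tested genes within 5 Mb, for clone 4 and clone 5; the dotted line marks equal values. In clone 4 the chromosome 16 members lie near the line at regional medians of 0.45 to 0.49, DNAJC19 lies at 0.99 with a regional median of -0.06, and in clone 5 TIMM17A lies at 0.51 with 0.05.

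Outside chromosome 16 and the long arm of chromosome 1 there were 35 tested members. Against clone 4, 1 of the 35 changed, DNAJC19, beside 1097 of 11429 other genes with a position there. Against clone 5, 0 changed by edgeR beside 409 of those genes, and at an unadjusted p under 0.05 there were 4 members and 1771 genes. The spread of the members was compared with that of other genes between like libraries. The SD of the log2 ratio of WT 1 over WT 2 was 0.17 over the members and 0.18 over 10047 genes whose mean reached 5 CPM. Between clones 4 and 5 it was 0.29 over the members and 0.52 over those genes.

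By role, the members past the threshold are read against 11.4% of all genes in WT against clone 4, 3.51% against clone 5 and 13.1% between the clones. Of the TOM genes 1 of 9 tested changed against clone 4 and between the clones, TOMM20, and the range of all 9 in WT against NOCT-KO was -0.14 to 0.17. TOMM70A, the receptor for carrier proteins, was at 216, 218, 235 and 215 CPM, and TOMM22, the central receptor, at 207, 202, 197 and 193 CPM, with both clones under WT. None of the 3 genes of the sorting and assembly machinery, SAMM50, MTX1 and MTX2, passed the threshold in any comparison. Their range against clone 5 was -0.28 to 0.30. Of the 7 genes of the intermembrane space, 1, GFER, differed between the clones and 0 changed against either. Of the 6 inner membrane genes, 1, TIMM17A, changed against clone 5 and between the clones, while the channel TIMM23 had 55.1, 55.4, 55.8 and 47.1 CPM. Of the 5 genes of the import motor, 1, DNAJC19, changed against clone 4 and between the clones. The 3 presequence peptidase genes, PMPCA, PMPCB and MIPEP, were past the threshold in no comparison, with a range of -0.12 to 0.08 against clone 4. Of the 6 proteases and unfoldases 1, SPG7, and of the 3 folding chaperones 1, TRAP1, changed against clone 4 and between the clones.

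Partner genes and paralogs can be set against each other within a library, where library size cancels. The ratio of HSPD1 to HSPE1 per kb was 6.46 (WT 1), 7.80 (WT 2), 7.73 (clone 4) and 9.14 (clone 5). WT 2 and clone 4 were nearly equal and clone 5 was highest. AFG3L2 over SPG7, the subunits of the m-AAA protease, was 1.85 and 1.83 per kb in WT, 2.70 in clone 4 and 1.52 in clone 5. CHCHD4 over GFER, the import receptor and the oxidase of the intermembrane space, was 1.67, 1.71, 2.35 and 1.31 per kb in the same order. In both pairs the WT libraries were alike and the clones lay on opposite sides of them, and the second gene of each lies on chromosome 16.

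TIMM17A over TIMM17B was 6.66 and 6.35 per kb in WT, 7.54 in clone 4 and 4.68 in clone 5. GRPEL1 over GRPEL2, the nucleotide exchange factors of the motor, was 0.613 and 0.617 in WT, 0.557 in clone 4 and 0.533 in clone 5, per kb. The WT libraries were nearly equal, and both clones were below them. MTX1 over MTX2 was 0.329, 0.396, 0.424 and 0.540 per kb, and CLPP over its unfoldase CLPX 0.530, 0.700, 0.785 and 0.748 per kb. In each WT 1 was lowest, and both clones were above both WT libraries. Among the pairs, WT and NOCT-KO did not overlap for GRPEL1 over GRPEL2, MTX1 over MTX2 and CLPP over CLPX alone. Of single genes 34.3% did not overlap, and no such share was computed over other gene pairs. TIMM9 over TIMM10, partners in the chaperone ring, was 0.363 per kb in WT 1 and 0.218 in clone 5, with WT 2 (0.263) and clone 4 (0.274) between them. PMPCA over PMPCB was 2.10, 2.42, 2.05 and 2.34 per kb, TIMM8A over TIMM8B 2.05, 1.65, 1.64 and 1.73, and TOMM40 over TOMM40L 2.45, 2.75, 2.17 and 2.60, and WT and NOCT-KO overlapped in all 3. The ratios are descriptions without a test.

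**Figure D5:**
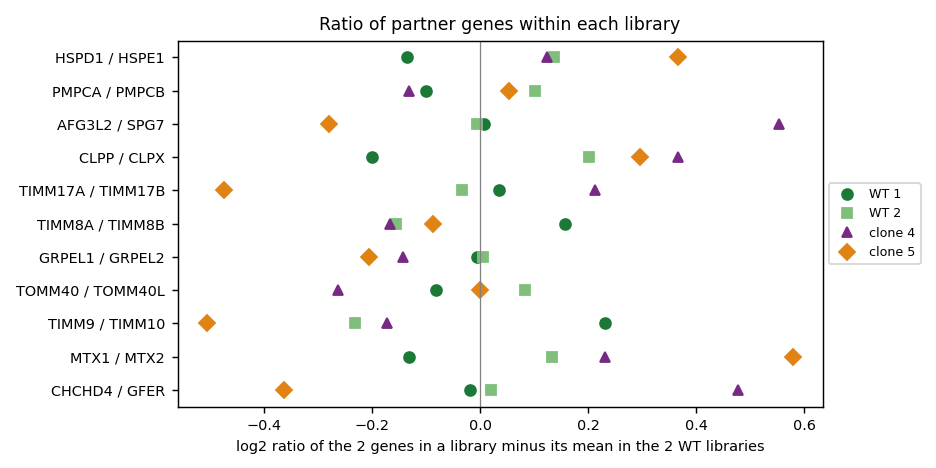
Log2 ratio of each of 11 pairs of partner genes or paralogs within a library, minus its mean in the WT pair, 1 point per library. For AFG3L2 over SPG7 and CHCHD4 over GFER clone 4 lies to the right and clone 5 to the left of WT, and for TIMM17A over TIMM17B clone 5 lies at the far left.

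Further genes of the pathway come from lists that hold no member. Of 25 tested genes of mitochondrial insertion, processing and quality control, 19 were higher in WT than in NOCT-KO and 6 lower. Their median log2 fold change was 0.06. WT and NOCT-KO did not overlap in 5 with WT higher (ROMO1, PHB2, MTCH1, OXA1L, FXC1) and 1 with WT lower (HSCB). Over all genes these shares were 17.9% and 16.4%. By edgeR, 0 of the 25 changed in WT against NOCT-KO (0.0% of all genes) and 0 against clone 5 (3.51%). Against clone 4, 1 changed (11.4%). That was DNAJA3, the mitochondrial J-protein of HSPA9, on chromosome 16 with 129, 137, 91.9 and 144 CPM and a log2 fold change of 0.53 (adjusted p = 0.0027 from edgeR). Of 9 cytosolic chaperones that hand precursors to the outer membrane, 1 changed against clone 4 (11.4% of all genes), DNAJA2, also on chromosome 16, at 242, 237, 180 and 251.3 CPM (log2 fold change 0.41, adjusted p = 0.0078 from edgeR). The regional medians within 5 Mb were 0.45 near DNAJA3 and 0.50 near DNAJA2. Among the stress factors that follow, calls are read against 11.4% of all genes for clone 4 and 3.51% for clone 5. WT and NOCT-KO did not overlap for ATF4 and DDIT3, in opposite directions. ATF4 was lower in WT (287, 300, 305 and 357 CPM) and DDIT3 higher (12.9, 10.3, 9.04 and 9.28 CPM). For HSF1 the groups overlapped (50.4, 53.5, 51.9 and 59.8 CPM). Of 5 transcription factors of the mitochondrial stress response, CEBPB was lower in WT than in clone 4 (58.1, 69.4, 113 and 65.6 CPM, log2 fold change -0.83, adjusted p = 0.00024 from edgeR). ATF5, which drives mitochondrial chaperones in mammalian cells under stress, was lower in WT than in clone 5, with 99.8, 112, 89.6 and 164 CPM (log2 fold change -0.62, adjusted p = 0.0024 from edgeR). In the comparison with clone 5 the members of the chaperone pair and the motor gave log2 fold changes of 0.08 for HSPD1, 0.45 for HSPE1 and -0.07 for HSPA9, none past the threshold (edgeR adjusted p = 0.60, 0.075 and 0.67), and HSPE1 was called with halved counts.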

How the data were processed

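Poly-A RNA of 4 A549 libraries was sequenced on Illumina. The deposited file is a table of raw counts, 1 line a gene, made by the authors. The submitters' processing notes name TopHat2, HTSeq and hg19, without versions. For the annotation and the strand setting, the sources used here give nothing. Genes that overlap may share counts, and among the members these include TOMM5, TOMM6, TIMM8B and GFER. TIMM23B had no line of its own, so reads of the TIMM23 copies cannot be told apart. About 99% of counts above 0 were even, so 2 counts may stand for 1 fragment. Of 23368 lines, 28 held a date in place of a symbol (0.274% of counts) and were left out. Of the table's columns of sample counts, 0 were unused.

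Counts were filtered (minimum count 10, total 15), scaled by TMM and tested with edgeR 4.0.16 in R 4.3.3 (quasi-likelihood test, p adjusted after Benjamini-Hochberg) over 13143 genes at 0.05. The fit of WT against NOCT-KO had 2 residual degrees of freedom and that by clone 1. Fold changes are WT over NOCT-KO. DESeq2 1.42.0 and limma 3.58.1 were alternatives, and the code was tested on simulated data. Positions and transcript lengths are from GENCODE lifted to hg19. Of 13143 tested genes, 12607 had a position. Named with values were members past the threshold in any comparison, members with no overlap and means at least 15% apart, the most abundant of each role, and partner pairs; other members are given in part. Members and lists were chosen with earlier results of these data known. No protein sequence was used here.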

Additional observations from a re-analysis of the deposited data

Results flagged for a closer look

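In 6 members the effect differed between the clones, by edgeR's test of clone 4 against clone 5. The log2 difference of clone 4 minus clone 5 was -0.74 for DNAJC19, -0.66 for GFER, -0.71 for SPG7 and -0.57 for TRAP1, and it was 0.74 for TIMM17A and 0.38 for TOMM20. Of all genes tested, 13.1% passed the same test. Of the 6, GFER, SPG7 and TRAP1 lie on chromosome 16, where 531 of 576 other genes were lower in clone 4 than in clone 5. TIMM17A and TOMM20 lie on the long arm of chromosome 1, where 354 of 560 other genes were higher in clone 4 and 206 lower. The nearest tested neighbors of TIMM17A, IPO9, SHISA4, RNPEP and ELF3, stood at 0.55, 1.17 (SE 0.52), 0.19 and 0.68 in clone 4 over clone 5. The part of either region in these members was not tested.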

How the results depend on the processing

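No paired analysis was possible because the groups share no replicate number. With no filter on low counts, 0 members were called against clone 4, 0 against clone 5 and 1 between the clones, while the log2 fold changes of the 6 members kept their direction. Adjusted p for those called against clone 4 then ran from 0.071 to 0.10 and was 0.20 for TIMM17A against clone 5, from edgeR. With halved counts 3 members were called against clone 5, HSPE1 and TIMM21 besides TIMM17A. Members outside chromosome 16 and the long arm of chromosome 1, a choice added after seeing the data, gave 1 call against clone 4, 0 against clone 5 and 1 between the clones. DNAJC19 was not called between the clones with at least 100 counts in every library, by DESeq2 or by limma-voom. The cause of these changes was not tested.

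Leaving out 1 library at a time gave 0 to 4 members called in WT against NOCT-KO. Without clone 4 it was 1, TIMM17A, and without clone 5 it was 4, DNAJC19, SPG7, TOMM20 and TRAP1. The log2 fold change ran from -0.29 to 0.37 for GFER (below 0 without WT 2 and without clone 4), from -0.21 to 0.49 for SPG7, from -0.24 to 0.51 for TIMM17A, from -0.32 to 0.057 for TOMM20 and from -0.042 to 0.53 for TRAP1. Each of the last 4 turned sign when 1 clone was left out. With either WT library alone, as values with no test, WT over clone 4 was 0.90 to 1.07 for DNAJC19, 0.44 to 0.55 for SPG7, 0.45 to 0.62 for TRAP1 and -0.33 to -0.31 for TOMM20, and WT over clone 5 was 0.45 to 0.57 for TIMM17A. Tests without a WT library were not run by clone, since no residual degree of freedom is left. For single members, in the settings that kept all libraries, 243 recomputed log2 fold changes kept their direction and side of the threshold, 13 lost the call and 2 gained it. Medians near 5 Mb and 10 Mb gave the same picture for the 6 members. Tested members had at least 218 counts in every library, the lowest being DNAJC19 in clone 4.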
